A study of Mus musculus with 20 samples.

Results

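The miR-10, miR-99, miR-100 and miR-125 microRNAs were followed in the livers of PiZ and wild-type mice. They were taken by name: every entry of miR-10a, miR-10b, miR-99a, miR-99b, miR-100, miR-125a or miR-125b, for any locus and either arm of the hairpin, was included. This gave 15 of the 1509 miRNA names in the deposited data, and 13 of them (7 of the 5p arm and 6 of the 3p arm) were among the 336 miRNAs with enough reads to test. The samples were livers of 5 PiZ and 5 wild-type (WT) mice, all of strain C57BL/6 and 6 weeks of age. PiZ mice carry a transgene for the human Z form of alpha-1 antitrypsin, a mutant protein that builds up in hepatocytes. Small RNA libraries were made from 1 µg of RNA of each frozen liver and sequenced in 2 runs, which were added together, so that each value below belongs to 1 mouse. Mouse numbers are only names and pair no animals.

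A miRNA is a short RNA that guides Argonaute proteins to messenger RNAs, mostly through its seed, bases 2 to 8 from the 5′ end, and lowers their output. miR-10 genes lie inside the Hox gene clusters, whose genes pattern the body axis. Most miR-99, miR-100 and miR-125 genes lie with a let-7 gene in shared clusters, an arrangement also known from insects. miR-99 and miR-100 are known for targeting the growth kinase mTOR, and miR-125 for targeting LIN28, an inhibitor of let-7 processing, and for roles in blood stem cells.

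The mature 5p sequences show why the families are described together and where their members could be confused. They are from RefSeq (GRCm38.p6), in which all 15 names were matched, and capitals mark the seed.
mmu-miR-10a-5p: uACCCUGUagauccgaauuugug
mmu-miR-10b-5p: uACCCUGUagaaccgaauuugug
mmu-miR-99a-5p: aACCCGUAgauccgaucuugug
mmu-miR-99b-5p: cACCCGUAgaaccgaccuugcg
mmu-miR-100-5p: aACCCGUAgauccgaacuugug
mmu-miR-125a-5p: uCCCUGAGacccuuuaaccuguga
mmu-miR-125b-5p: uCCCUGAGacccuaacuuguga
Counted from the 5′ end, mmu-miR-10a-5p and mmu-miR-10b-5p differed at 1 of 23 bases (U12A), and mmu-miR-99a-5p and mmu-miR-100-5p at 1 of 22 (U16A). mmu-miR-99b-5p differed from mmu-miR-99a-5p at 4 bases (A1C, U11A, U16C and U21C), all of them outside the seed. The miR-10 and miR-100 sequences are shifted copies of each other: with base 6 of mmu-miR-10a-5p left out, 20 of 22 bases matched mmu-miR-100-5p. The miR-125 members shared their first 13 bases and differed in length (24 and 22 bases).

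The 8 loci lay on 5 chromosomes in GRCm38.p6, all on the plus strand, and positions here run from the first base of the 5p arm to the last base of the 3p arm. Mir10a (chr11:96317186-96317248) lay 1019 bp from Hoxb4, and Mir10b (chr2:74726074-74726135) in introns of Hoxd3 and Hoxd4. Mir99b (chr17:17830194-17830253), let-7e and Mir125a (chr17:17830817-17830876) spanned only 683 bp within Spaca6, where Mir99b was intronic and Mir125a overlapped an annotated exon. The other clusters were far longer. Mir99a (chr16:77598940-77598997), let-7c-1 and Mir125b-2 (chr16:77646279-77646339) spanned 47400 bp in introns of the non-coding host gene Mir99ahg. Mir100 (chr9:41531437-41531492), let-7a-2 and Mir125b-1 (chr9:41581940-41582001) spanned 50565 bp in introns of the non-coding genes 3110039I08Rik and Gm49317. Mir125b-1 also overlapped an annotated exon of Gm28119, a non-coding gene on the same strand. mmu-miR-125b-5p is made from both Mir125b-1 and Mir125b-2, and its reads cannot be assigned to either.

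Libraries held 1307857 to 10780801 reads, so 1 read was worth between 0.0887 and 0.715 counts per 1000000 reads (CPM, on library sizes scaled by the TMM method). The files held a longer list of 1399 names (the shallower libraries, PiZ 1 and 2 and WT 1 to 3) or a shorter one of 990 names (PiZ 3 to 5 and WT 4 and 5), and the list used was a term of the fits unless stated otherwise. Depth and list go together and cannot be told apart. WT mice 1 and 3 stood apart from the other 8: their summed CPM of 4 hepatocyte miRNAs was 62776 and 86688, against 122145 to 250447 elsewhere, and that of 2 endothelial arms, of miR-126a, was 7897 and 12653 against 23357 to 41279. Most of the hepatocyte sum was miR-192-5p, while miR-122-5p, the defining hepatocyte miRNA, stood in those mice at 13597 and 11954 CPM, within the WT range of 11669 to 14245. Most of the endothelial sum was miR-126a-5p. By miR-126a-3p alone, WT mouse 3 (2313 CPM) was above PiZ mouse 5 (2176 CPM). Member fold changes that changed sign without WT mice 1 and 3 are given with and without them. Some other results, that of let-7c-5p among them, are given only with these mice. In bulk liver, fewer cells of a type and less RNA per cell cannot be told apart.

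Across the genotypes, no member was called. Of the 13 tested, 0 passed an adjusted p of 0.05 (edgeR quasi-likelihood test, Benjamini-Hochberg adjustment over all 336 miRNAs), where the background was 9.23% (31 of 336). Likewise 0 had an unadjusted p under 0.05, against 24.4% of all tested, and 0 had PiZ and WT mice that did not overlap, against 8.93%. The smallest adjusted p of a member was 0.303. The fold change (PiZ over WT, log2) was negative for 11 members and positive for 2, with a median of -0.16, beside 0.07 over all 336, of which 158 were negative. The interval of the difference, rather than the missing call, shows what these data bound: the 95% interval lay within 1 log2 unit (2-fold) either way for 7 of the 13 members, beside 153 of all 336.

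**Figure D1:**
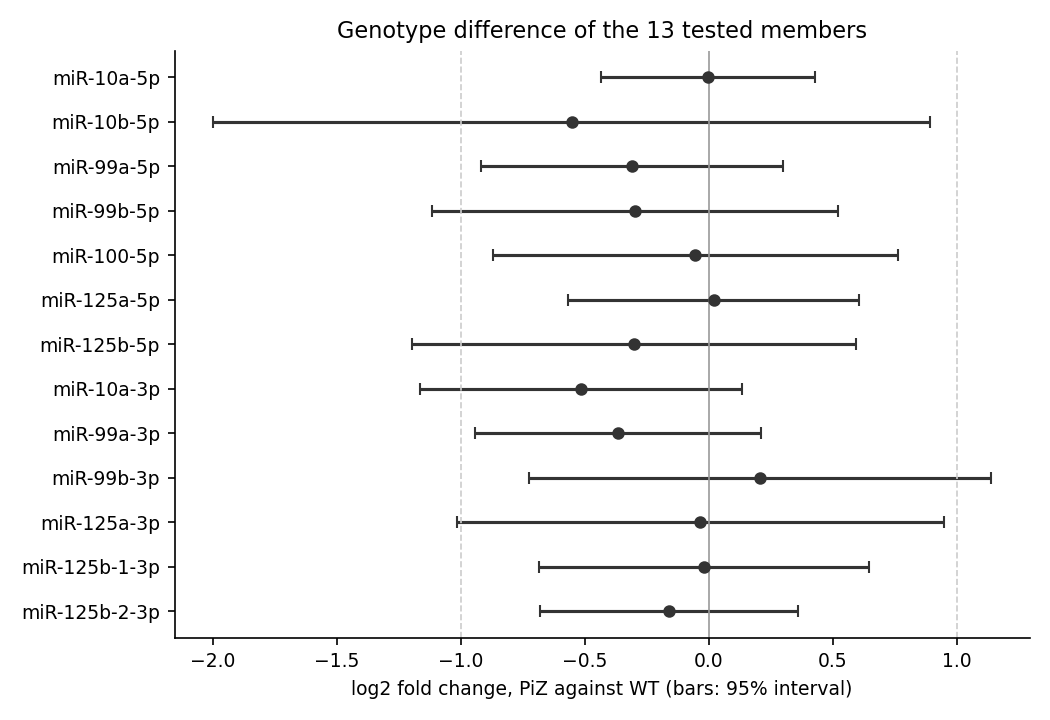
Log2 fold change between PiZ and WT livers (x axis) for the 13 tested members, as points with 95% intervals from edgeR; dashed lines mark 1 log2 unit either way. Every interval includes 0, and that of miR-10b-5p, from -1.997 to 0.89, is the widest.

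Together the members took 0.609% (exact 95% interval 0.604 to 0.614) to 1.08% (1.07 to 1.10) of a library's reads, the lowest in WT mouse 5 and the highest in WT mouse 3. These intervals cover counting error only, since reads without molecular identifiers are not independent molecules. mmu-miR-10a-5p alone made up 31.3% to 56.4% of member reads, the lowest share being in WT mouse 1. On the CPM scale, which counts each mature read once whatever its length, mmu-miR-10a-5p was above every other member in both genotypes with no overlap. mmu-miR-125a-5p, mmu-miR-125b-5p and mmu-miR-99b-5p came next and overlapped each other, mmu-miR-99a-5p and mmu-miR-100-5p overlapped each other and the low end of mmu-miR-99b-5p, and mmu-miR-10b-5p was lowest of the 5p arms, below all others in every mouse. Ligation in library preparation favours some ends, so the order is one of reads, not of molecules.

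**Figure D2:**
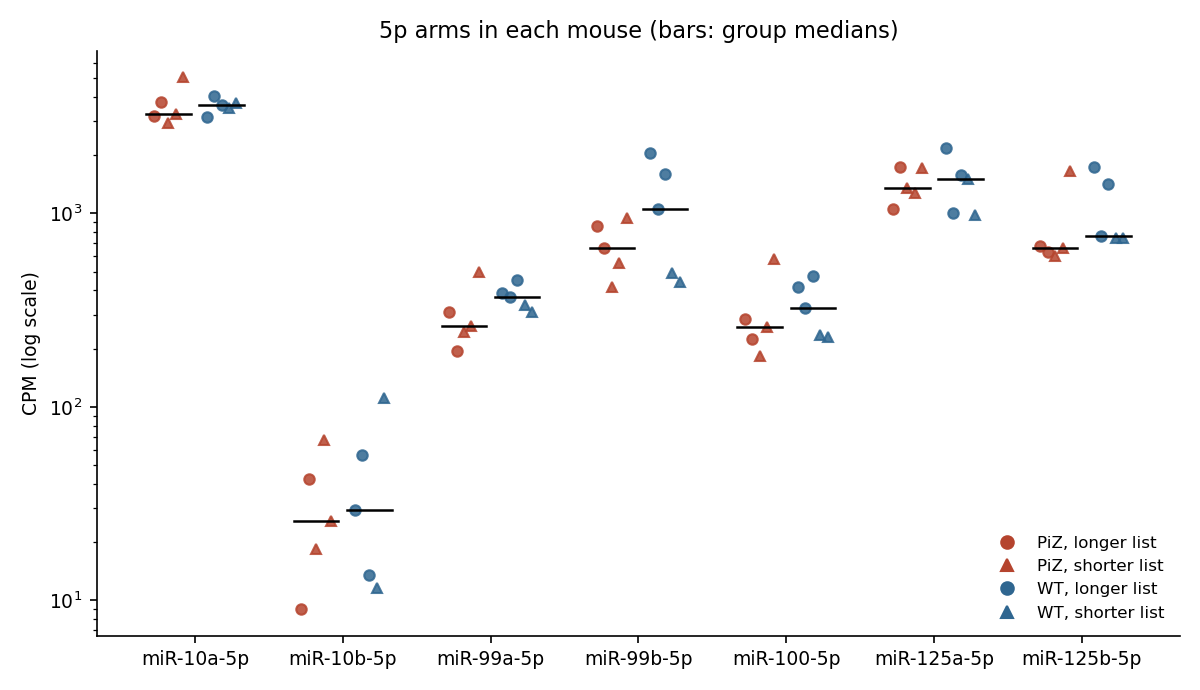
CPM (log scale) of the 7 5p arms in each mouse, PiZ left and WT right in each pair; circles are mice of the longer list, triangles of the shorter list, and black bars are medians of 5 mice. miR-10a-5p lies between 2925 and 5056 in all 10 mice while miR-10b-5p runs from 9.003 to 110.9, and PiZ mouse 5 stands above the other PiZ mice for miR-125b-5p.

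miR-10a, the Hoxb-cluster member, was the most even in level of the 5p arms. In PiZ mice 1 to 5 mmu-miR-10a-5p stood at 3203, 3754, 2925, 3250 and 5056 CPM, and in WT mice 1 to 5 at 3143, 4054, 3640, 3496 and 3732. The groups overlapped almost wholly, with 3638 ± 847 CPM in PiZ and 3613 ± 333 in WT (SD, n = 5 each). The log2 fold change was -0.0018 (SE 0.20, 95% interval -0.43 to 0.43, adjusted p = 0.996 in edgeR). Ranked by level it was number 26 of the 336.

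miR-10b, its Hoxd-cluster paralog, varied 12.3-fold between mice, more than any other member. mmu-miR-10b-5p stood at 9.003, 42.2, 18.5, 67.4 and 25.6 CPM in PiZ mice 1 to 5 and at 29.3, 56.3, 13.4, 11.5 and 110.9 in WT mice 1 to 5. High and low mice occurred in both genotypes and on both lists. The log2 fold change was -0.55 (SE 0.66, interval -1.997 to 0.89, adjusted p = 0.659 in edgeR), and it moved from -1.31 to 0.29 as single mice were left out; without WT mouse 5 it was positive. As a share of the reads of both miR-10 5p arms, miR-10b was 2.89% in WT mouse 5 (exact 95% interval 2.71 to 3.07) and 2.03% in PiZ mouse 4 (1.89 to 2.18), against 0.28% in PiZ mouse 1 (0.176 to 0.424). These intervals cover neither the spread between runs nor the way shared reads were split.

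The separate runs of a library showed the same high mice. In WT mouse 5 the miR-10b share was 3.09% in run 1 and 2.69% in run 2, and in PiZ mouse 4 it was 2.08% and 1.98%. Low counts were less steady: WT mouse 1 had 34 reads of mmu-miR-10b-5p in run 1 and 7 in run 2, shares of 1.23% and 0.416%. The miR-10 pair is 1 base apart, and its counts ended in 0.5 in the same 11 of 20 files for both members while their sum was whole in all 20. The same held for mmu-miR-99a-5p and mmu-miR-100-5p in 9 of 20 files. The sources used here do not say how reads matching both members were split, so small counts of the rarer member are uncertain.

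Other miRNAs of the Hox clusters were near the limit of detection. Of 7 names in that list, 4 were found and 0 had enough reads to test. mmu-miR-196a-5p had 11 reads in PiZ mouse 4, 2 in PiZ mouse 5 and 0 in the other 8 mice. mmu-miR-196b-5p had 7 reads in PiZ mouse 4 and 7 in WT mouse 5, and at most 4 elsewhere. mmu-miR-615-3p had 8 reads in PiZ mouse 4 and at most 1 elsewhere, and mmu-miR-615-5p 1 read in that mouse. The 2 mice with the most miR-10b thus also held the most miR-196b reads, though these are deep libraries and 7 reads are few. On the CPM scale PiZ mouse 1, the lowest for miR-10b, was the highest for miR-196b (0.818, from 2 reads). The part of depth was not tested.

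In the miR-99 and miR-100 family, whose 5p arms share the seed ACCCGUA, log2 fold changes of the 5p arms were all negative and none passed the test. mmu-miR-99a-5p stood at 311, 194, 243, 262 and 501 CPM in PiZ mice 1 to 5 and at 386, 370, 455, 336 and 309 in WT mice 1 to 5. PiZ mice 2 to 4 lay below all WT mice and PiZ mouse 5 above them. Its log2 fold change was -0.31 (SE 0.28, interval -0.92 to 0.30, adjusted p = 0.554 in edgeR), and -0.49 without PiZ mouse 5 (adjusted p = 0.118).

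mmu-miR-100-5p, 1 base from miR-99a and encoded in another cluster, stood at 286, 225, 184, 259 and 584 CPM in PiZ and at 418, 326, 475, 236 and 229 in WT. PiZ mouse 5 was again the highest of the 10. The fold change on the log2 scale was -0.05 (SE 0.37, interval -0.87 to 0.76, adjusted p = 0.9502 in edgeR), -0.36 without PiZ mouse 5 and 0.16 without WT mice 1 and 3. The ratio of miR-99a to miR-100 reads kept between 0.857 and 1.42 in all mice. Reads matching both members may be counted in part to each, which would bear on this ratio. Their part in it was not tested.

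mmu-miR-99b-5p was the most abundant of the family, with 45.1% (exact 95% interval 44.1 to 46.1, WT mouse 5) to 71.8% (70.4 to 73.2, WT mouse 1) of its reads. It stood at 858, 667, 416, 551 and 945 CPM in PiZ mice and at 2050, 1058, 1601, 494 and 442 in WT mice. WT mice 1 and 3 were the highest of the 10, and WT mice 4 and 5 were below every PiZ mouse except mouse 3. Its log2 fold change was -0.30 (SE 0.37, interval -1.12 to 0.52, adjusted p = 0.677 in edgeR) and 0.045 without WT mice 1 and 3 (adjusted p = 0.946).

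The balance of miR-99b and miR-99a separated the file lists, not the genotypes. The ratio of their reads was 2.76, 3.44, 5.31, 2.86 and 3.52 in the 5 mice of the longer list (PiZ mice 1 and 2, WT mice 1 to 3). It was 1.72, 2.10, 1.89, 1.47 and 1.43 in those of the shorter list (PiZ mice 3 to 5, WT mice 4 and 5), with no overlap. In the runs of WT mouse 1 the ratio was 5.77 and 4.67, and in those of WT mouse 5 1.45 and 1.42. This division was seen after the values were known, so it is given with no test, and depth and list divide the mice in the same way.

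In the miR-125 family, mmu-miR-125a-5p had nearly equal means in the genotypes, and mmu-miR-125b-5p had 3 mice well above the rest. mmu-miR-125a-5p stood at 1060, 1738, 1349, 1279 and 1723 CPM in PiZ and at 2187, 1007, 1577, 1507 and 979 in WT. The WT range enclosed the PiZ range. A log2 fold change of 0.019 was fitted (SE 0.27, interval -0.57 to 0.61, adjusted p = 0.976 in edgeR), and its sign turned under several alternatives, upper-quartile scaling among them (-0.14).

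mmu-miR-125b-5p stood at 681, 635, 604, 666 and 1662 CPM in PiZ mice 1 to 5 and at 1745, 767, 1419, 749 and 744 in WT mice 1 to 5. PiZ mice 1 to 4 were close together and below every WT mouse, by little in the case of WT mice 2, 4 and 5, while PiZ mouse 5 lay with WT mice 1 and 3. The log2 fold change was -0.30 (SE 0.41, interval -1.20 to 0.59, adjusted p = 0.717 in edgeR). It was -0.61 without PiZ mouse 5 (adjusted p = 0.160), 0.10 without WT mice 1 and 3 (adjusted p = 0.863) and -0.25 without all 3 (adjusted p = 0.132). PiZ mouse 5 had the highest hepatocyte sum of all mice (250447 CPM) and the lowest PiZ sums of the endothelial (23357) and mesenchymal (9875) lists. Most of its hepatocyte sum was miR-192-5p (227480). Its miR-122-5p (10577) lay within the PiZ range of 6807 to 11138, all of which was below the WT range of 11669 to 14245. miR-122-5p was not called (log2 fold change -0.48, adjusted p = 0.119 in edgeR). Its mesenchymal miRNAs were divided: miR-143-3p (8946) and miR-214-3p (36.7) were lowest among PiZ mice. miR-199a-3p (420, joint with miR-199b-3p) and miR-199a-5p (301) were highest of all mice. The part of these in its miR-125b level was not tested.

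The seed CCCUGAG also occurs in mmu-miR-351-5p, mmu-miR-6367 and mmu-miR-6394, which bear other names. The first of these is shown because it was the only one abundant enough to test.
mmu-miR-351-5p: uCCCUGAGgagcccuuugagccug
It stood at 186 to 243 CPM in PiZ and 117 to 342 in WT, with a log2 fold change of -0.07 (SE 0.27, adjusted p = 0.922 in edgeR). mmu-miR-6367 had at most 11 reads in a mouse and mmu-miR-6394 had 0 in all.

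The 3p arms, which are mostly passenger strands of these hairpins, were present at a small part of the 5p level. mmu-miR-10a-3p came nearest to a genotype difference among the members. It stood at 3.68, 3.55, 5.51, 3.82 and 2.39 CPM in PiZ and at 5.01, 4.70, 6.16, 6.06 and 4.99 in WT, where the counts behind these values were 7 to 55 reads a mouse. All PiZ mice except mouse 3 were below all WT mice. The difference on the log2 scale was -0.52 (SE 0.29, interval -1.16 to 0.13, unadjusted p = 0.108 and adjusted p = 0.303 in edgeR).

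mmu-miR-99a-3p ranged from 5.81 to 10.3 CPM in PiZ and from 7.88 to 14.1 in WT (log2 fold change -0.37, adjusted p = 0.429 in edgeR), with 3 of 5 PiZ mice below all WT mice. This is the direction of its 5p partner, and without PiZ mouse 5 and WT mice 1 and 3 it gave -0.62 (adjusted p = 0.0526 in edgeR), the lowest adjusted p of any member under any setting. That setting was chosen after the data were seen and called 100 of 390 miRNAs. mmu-miR-99b-3p ranged from 2.46 to 4.73 CPM in PiZ and from 1.57 to 7.87 in WT, on as few as 3 reads (log2 fold change 0.20, adjusted p = 0.816 in edgeR). mmu-miR-125a-3p ranged from 3.27 to 7.99 CPM in PiZ and from 3.36 to 11.2 in WT (log2 fold change -0.03, adjusted p = 0.9748 in edgeR). The last 2 ranges overlapped almost wholly.

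The 3p arms of miR-125b are the only reads that separate its loci. mmu-miR-125b-1-3p, of the chromosome 9 cluster, ranged from 7.37 to 20.6 CPM in PiZ and from 7.83 to 16.2 in WT (log2 fold change -0.02, adjusted p = 0.976 in edgeR). mmu-miR-125b-2-3p, of the chromosome 16 cluster, ranged from 20.9 to 40.9 in PiZ and from 24.6 to 41.4 in WT (log2 fold change -0.16, adjusted p = 0.743 in edgeR). The chromosome 16 arm made up 60.3% (exact 95% interval 48.1 to 71.5, WT mouse 3) to 81.1% (71.7 to 88.4, PiZ mouse 1) of the reads of both. It was the larger in every mouse, and across the 10 mice the levels of these arms had a Pearson r of 0.01 on the log2 CPM scale, and 0.29 without PiZ mouse 1 and WT mouse 2, on as few as 15 reads a mouse. Which locus gives more mature mmu-miR-125b-5p does not follow from this, since the 3p arms need not be equally stable.

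The remaining members were hardly seen. mmu-miR-100-3p had 24 reads in all, 16 in PiZ and 8 in WT, the latter all in WT mouse 5. mmu-miR-10b-3p was listed only in the files of the longer list, at 0 reads in all 5 mice, which allows up to 0.306 CPM (unscaled, 3 reads over those libraries together) by counting error.

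The ratio of 5p to 3p reads within a hairpin needs no scaling between libraries. It was tested for 64 hairpins with limma, of which 0% were called (2 had an unadjusted p under 0.05). Of the family, 3 were among them: miR-10a, miR-99a and miR-125a. miR-125b was left out by its names, not by its reads. Its 3p arms bear locus numbers and its 5p arm does not, so the arms were not paired. The miR-10a ratio was 9.88 in PiZ and 9.34 in WT on the log2 scale, a fitted difference of 0.54 (SE 0.35, adjusted p = 0.573 in limma). PiZ mouse 5 had the highest ratio, 2114 reads of the 5p arm for each 3p read against 531 to 1058 in the other 9 mice, and without it the difference was 0.28. The miR-125a and miR-99a ratios differed by 0.14 (SE 0.34, adjusted p = 0.804 in limma) and 0.03 (SE 0.24, adjusted p = 0.974 in limma).

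Members of 1 cluster did not all move together from mouse to mouse. The plainest case was the compact chromosome 17 cluster. mmu-miR-125a-5p followed its neighbour mmu-let-7e-5p, whose hairpin arms end 384 bp upstream, with Pearson r 0.96 and Spearman rho 0.90 of log2 CPM over 10 mice, and 0.95 without the 2 mice farthest from the median of miR-125a. The ratio of their reads kept between 5.04 and 6.74 in all mice, a range of 1.34-fold. mmu-miR-99b-5p, with 112 bp between its hairpin arms and those of let-7e on the other side, had r 0.27 (rho 0.25) with it, and -0.26 without the 2 farthest mice. Its ratio to let-7e ran from 1.69 in PiZ mouse 3 to 6.41 in WT mouse 3. By list, it was 2.49 to 6.41 on the longer and 1.69 to 3.32 on the shorter. The opposite arm of the same hairpin, mmu-miR-99b-3p, was among the closest to miR-125a (r 0.83, rho 0.76). Without WT mice 1 and 5, the farthest from the median of miR-125a, that r was 0.73. This arm had as few as 3 reads in a mouse. These r values pool 10 mice of both file lists, which differ in depth, and with 5 mice a list they were not computed within lists.

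**Figure D3:**
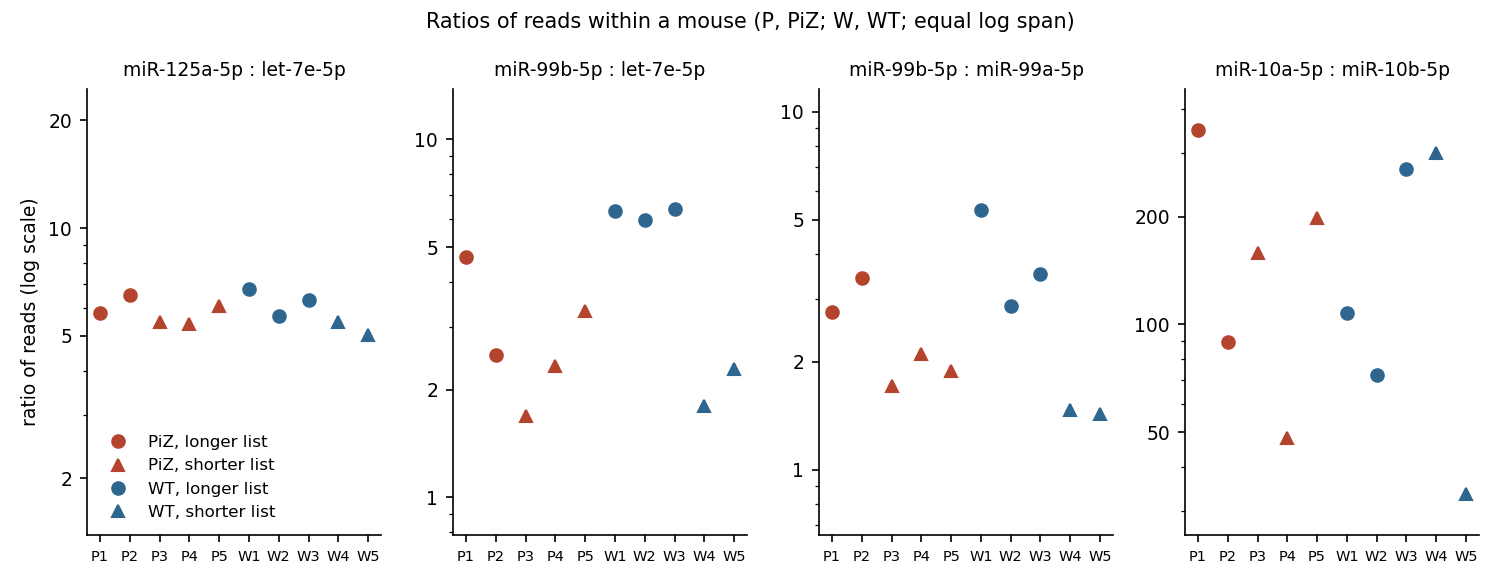
Ratios of reads within each mouse (log scale, each panel with the same log span) for 4 pairs; P and W number the PiZ and WT mice, circles are the longer list and triangles the shorter. The miR-125a to let-7e ratio stays between 5.04 and 6.74, the miR-99b to miR-99a ratio divides the lists (2.76 or more against 2.10 or less), and the miR-10a to miR-10b ratio runs from 33.6 to 348.

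In the long clusters, mmu-miR-125b-5p had r 0.82 (rho 0.94) with mmu-miR-99a-5p of chromosome 16 and r 0.91 (rho 0.87) with mmu-miR-100-5p of chromosome 9, and 0.80 and 0.82 without the 2 farthest mice. With the let-7 arms of these clusters r was lower: 0.51 for mmu-miR-99a-5p with let-7c-5p, 0.52 for mmu-miR-100-5p with let-7a-5p, and for mmu-miR-125b-5p 0.76 with let-7c-5p (0.44 without WT mice 1 and 3) and 0.81 with let-7a-5p. mmu-miR-99a-5p and mmu-miR-100-5p, on different chromosomes, had r 0.87 (rho 0.93). The part of reads shared between these near-identical sequences in that value was not tested. The miR-10 paralogs had r 0.22 (rho 0.35) and the miR-125 paralogs r 0.63 (rho 0.33).

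All 8 let-7 names listed beside the families were found, in 7 rows, as let-7a-1-3p and let-7c-2-3p share an entry. Of these rows, 6 were tested and 0 were called, with a median log2 fold change of -0.09. The joint entry (log2 fold change 0.46) bears the names of hairpins let-7a-1 and let-7c-2, which are not those of the clusters described above. mmu-let-7e-5p had -0.01 (SE 0.23, adjusted p = 0.978 in edgeR). mmu-let-7c-5p stood at 3334 to 4758 CPM in PiZ and 3916 to 9099 in WT, with 4 of 5 PiZ mice below all WT mice (log2 fold change -0.56, adjusted p = 0.186 in edgeR). mmu-let-7a-5p had -0.31 (adjusted p = 0.494). let-7c-5p and let-7a-5p are also made from hairpins outside these clusters. WT mouse 1 was the highest of all mice for each of these 5p arms.

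For the most abundant member of each family, the 3 most alike miRNAs by Pearson r of log2 CPM over the 10 mice were as follows. For mmu-miR-10a-5p they were mmu-miR-24-2-5p (r 0.84), mmu-miR-122-3p (0.80) and mmu-miR-27b-3p (0.76), with 0.68, 0.74 and 0.28 without the 2 farthest mice. For mmu-miR-99b-5p they were mmu-miR-501-3p (r 0.93), mmu-miR-29a-3p (0.89) and mmu-miR-324-5p (0.87), and 0.77, 0.64 and 0.62 without WT mice 1 and 3. For mmu-miR-125a-5p they were mmu-let-7e-5p, mmu-let-7d-5p (r 0.83) and the miR-99b 3p arm already named.

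The genotype difference was also compared between the file lists, within which mice had like depth. Of 372 miRNAs tested for that term in edgeR, 0% were called and 4.3% (16) had an unadjusted p under 0.05. Among the 13 members, 11 had a higher fold change on the shorter list, with a median difference of 0.39 on the log2 scale beside 9.78e-04 over all, and 2 had an unadjusted p under 0.05. These were mmu-miR-125a-3p, with a difference of 1.88 (SE 0.66, adjusted p = 0.873 in edgeR), and mmu-miR-99b-5p, with 1.42 (SE 0.56, adjusted p = 0.873 in edgeR). mmu-miR-125b-5p and mmu-miR-100-5p followed with 1.32 and 1.16. WT mice 1 and 3 are on the longer list and PiZ mouse 5 on the shorter, so the mice that stood apart lie on opposite sides of this comparison.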

How the data were processed

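Small RNA was sequenced from 10 mouse livers (5 PiZ, 5 WT), each library in 2 technical runs. The deposited values are estimated counts per mature miRNA, some of them fractional, with no normalization by the authors. CASAVA is the tool named per the submitters' processing notes, with no version; the sources used here do not give the aligner, the reference release or the handling of reads with several matches. Runs were summed and rounded. All fits used the 880 names common to the files (99.9991% or more of reads); runs of a library differed by a chi-square per degree of freedom of 1.06 to 1.38. After filterByExpr, 336 remained, and edgeR 4.0.16 (TMM scaling, quasi-likelihood test, terms for file list and genotype) was run on them. Log2 CPM used a prior count of 2; limma 3.58.1 tested log2 arm ratios with a pseudocount of 0.5 where each arm averaged at least 20 reads. DESeq2 1.42.0 and limma-voom were alternatives, in R 4.3.3. The fits were tested on simulated data. Python 3.11.15 and matplotlib 3.10.9 drew the plots. Loci were set against GENCODE M21.

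Every name of the rule is accounted for, and the 3 miRNAs most alike the leading member of each family are named. The members, lists and alternatives were chosen with earlier results of these data known. Mice count as separate animals by their labels. Not analysed here were other miRNAs for their own sake.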

Additional observations from a re-analysis of the deposited data

Results flagged for a closer look

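mmu-miR-125b-5p in PiZ mouse 5, at 1662 CPM, lay far from the other 4 PiZ mice (604 to 681 CPM). On the log2 CPM scale its gap to the nearest of them was 0.883 of the group's range, above the 95% critical value of 0.71 for 5 samples. It was 1 of 26 groups examined (13 members in 2 genotypes), of which chance would give 1.3. The same mouse was the highest of all 10 for mmu-miR-10a-5p, mmu-miR-99a-5p and mmu-miR-100-5p.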

How the results depend on the processing

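No paired analysis was possible because the numbers shared by the labels name technical runs of a library, and the mice of the 2 genotypes are different animals. No member was called under any of 25 settings (317 values, the lowest adjusted p being 0.0526). The number of miRNAs called, 31 as reported, was 83 with no filter, 16 with a stricter filter, 50 with DESeq2, 7 with limma-voom, 18 with run 2 alone and 0 on the shorter list alone (55 with an unadjusted p under 0.05). The following alternatives were chosen after the data were seen: a filter by genotype group size gave 13, leaving out WT mice 1 and 3 gave 0 in edgeR (104 unadjusted), and leaving out PiZ mouse 5 as well gave 100. Leaving out each mouse gave 5 to 46: 9, 12, 17, 20 and 46 without PiZ mice 1 to 5, and 12, 10, 12, 5 and 8 without WT mice 1 to 5. Of the calls, 90.3% were higher in PiZ, and 78.6% with upper-quartile scaling, which moved the median of all miRNAs from 0.07 to -0.10. The file list comparison called 6 with no filter. Arm balance called 2 with a pseudocount of 5 and 0 to 1 as single mice were left out.

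Member fold changes of the other sign were as follows. On the shorter list alone they were 0.50 (mmu-miR-100-5p), 0.0094 (mmu-miR-10a-5p), 0.78 (mmu-miR-125a-3p), 0.22 (mmu-miR-125b-1-3p), 0.33 (mmu-miR-125b-5p), 0.0075 (mmu-miR-99a-5p) and 0.40 (mmu-miR-99b-5p), and on the longer list -0.20 (mmu-miR-125a-5p). Without WT mice 1 and 3 they were 0.16 (mmu-miR-100-5p), 0.44 (mmu-miR-125a-3p), 0.24 (mmu-miR-125b-1-3p), 0.10 (mmu-miR-125b-5p) and 0.045 (mmu-miR-99b-5p), and without PiZ mouse 5 as well 0.50 (mmu-miR-125a-3p) and 0.12 (mmu-miR-125b-1-3p). Without the list term they were 0.0098 (mmu-miR-10a-5p), 0.0025 (mmu-miR-125a-3p), -0.021 (mmu-miR-125a-5p) and 0.078 (mmu-miR-125b-1-3p). Run 1 alone gave 0.016 (mmu-miR-10a-5p), 0.25 (mmu-miR-125a-3p) and 0.16 (mmu-miR-125b-1-3p), and run 2 alone 0.039 (mmu-miR-10a-5p). The group-size filter gave 0.030 (mmu-miR-10a-5p), 0.034 (mmu-miR-125a-3p) and 0.017 (mmu-miR-125b-1-3p). limma-voom gave 0.26 (mmu-miR-125a-3p) and 0.043 (mmu-miR-125b-1-3p). For mmu-miR-125a-5p, RLE scaling and DESeq2 gave -0.016 each, upper-quartile scaling -0.14 and no filter -0.069. The list difference with no filter was -0.13 for mmu-miR-10a-3p and -0.11 for mmu-miR-10a-5p. The cause was not tested.

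As single mice were left out, log2 fold changes ran from -0.36 to 0.047 (mmu-miR-100-5p), -0.25 to 0.078 (mmu-miR-10a-5p), -1.31 to 0.29 (mmu-miR-10b-5p), -0.50 to 0.17 (mmu-miR-125a-3p), -0.28 to 0.10 (mmu-miR-125a-5p), -0.30 to 0.043 (mmu-miR-125b-1-3p) and -0.13 to 0.49 (mmu-miR-99b-3p), and arm differences from -0.14 to 0.31 (miR-125a) and -0.094 to 0.16 (miR-99a). The other members kept their sign. Depth limits mmu-miR-10b-5p and the 3p arms, some of which rest on under 10 reads in a mouse.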

Other observations

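Chosen after the values were seen, the miRNAs most alike the remaining members were as follows. mmu-miR-125b-5p was closest to mmu-miR-191-5p (Pearson r 0.97 of log2 CPM over 10 mice), mmu-miR-29a-3p (0.93) and mmu-miR-221-5p (0.92). By Spearman rho these stood at 0.94, 0.89 and 0.92, beside 0.94 for mmu-miR-99a-5p and 0.87 for mmu-miR-100-5p. mmu-miR-10b-5p had no close match: its highest r values were 0.67 with mmu-miR-467a-5p, 0.67 with mmu-miR-130a-5p and 0.59 with mmu-miR-92a-1-5p. Among the let-7 3p arms, the joint entry of let-7a-1-3p and let-7c-2-3p stood at 86.5 and 59.4 CPM in WT mice 1 and 3, against 354 to 457 in the other 8 mice, while the let-7a and let-7c 5p arms were not low in those 2 mice. The other marker lists, as summed CPM, were 1895 to 3035 in PiZ and 912 to 2171 in WT for the immune list, 5771 and 8335 in WT mice 1 and 3 against 9875 to 16858 in the others for the mesenchymal list, 178 to 315 and 189 to 280 for the biliary list, 311 to 1751 and 259 to 1079 for the erythroid list, and 12.2 to 80.9 and 5.74 to 17.2 for the pancreas list, of which 2 of 4 miRNAs were called higher in PiZ (edgeR, adjusted p under 0.05) and 3 of 4 had a positive fold change. Of the 6 immune miRNAs, 0 were called and 4 had a positive fold change. miR-142-5p was the largest part of the immune sum in every PiZ mouse. miR-146a-5p (log2 fold change -0.13) and miR-155-5p (-0.06) were negative. Most of the mesenchymal sum was miR-143-3p, and the other members of that list were divided. In WT mice 1 and 3 the joint miR-199a-3p and miR-199b-3p entry was lowest of all mice (167 and 254 CPM). miR-145a-5p (561 and 343) and miR-214-3p (78.7 and 58.2) were highest there, and miR-199a-5p (212 and 284) was neither lowest nor set apart.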
